A study of Mus musculus with 6 samples.

Results

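The miR-23/27/24 clusters are a pair of loci that each encode a miR-23, a miR-27 and a miR-24 hairpin, and their small RNAs were followed in mouse embryonic stem cells after 4 compounds and 2 vehicles. The members are the 6 hairpins Mir23a, Mir27a and Mir24-2 of the a cluster and Mir23b, Mir27b and Mir24-1 of the b cluster, out of 1174 annotated mouse hairpins with a Mir symbol. Read sequences of 18 to 26 bases, called tags here, were assigned to a hairpin when they matched its sense strand without mismatch, and were then summed per arm. The 2 arms of a hairpin are its 5p and 3p sides, each the source of a possible mature microRNA. The 6 hairpins have 11 distinct arms, because miR-24-3p is the same from both clusters, and these are 11 of 1268 arms with tags.

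All libraries come from J1 mouse embryonic stem cells adapted to growth on gelatin, and the medium of every group held leukemia inhibitory factor at 1000 U/ml, which keeps such cells from differentiating. Treatment lasted 24 h in all groups. The 4 treated groups received vitamin C at 50 µg/ml, retinoic acid or BIO at 1 µM each, or CHIR99021 at 3 µM, and the 2 control groups received 1 µL of DMSO or of ddH2O. DMSO is the vehicle of retinoic acid, BIO and CHIR99021, and ddH2O that of vitamin C. Each group is 1 library, so no difference below has a replicate check. The intervals given are 95% exact intervals for counting error only, and cover neither variation between cultures nor amplification of the same molecule.

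MicroRNAs guide Argonaute proteins to messenger RNAs that pair with bases 2 to 8 of the microRNA, its seed, and lower the output of those messengers. Hairpins that lie close together on the same strand are usually cut by Drosha from one primary transcript and then by Dicer into a duplex, of which one strand is mostly kept. miR-23 is known for repressing glutaminase downstream of c-Myc, miR-27 for restraining fat cell differentiation, and miR-24 for effects on cell cycle and DNA repair genes. In mouse embryonic stem cells miR-27a and miR-24 are known as c-Myc-repressed microRNAs that favour exit from self-renewal. Retinoic acid drives differentiation through nuclear receptors, the GSK3 inhibitors BIO and CHIR99021 raise Wnt/β-catenin signalling, and vitamin C is a cofactor of TET and other dioxygenases.

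On GRCm38, the a cluster lies on the plus strand of chromosome 8 and spans 404 bases. Mir23a is at 84208518 to 84208592, Mir27a at 84208672 to 84208758 and Mir24-2 at 84208815 to 84208921. The nearest protein-coding gene is Zswim4, 1757 bases away, and the only annotated overlaps are a minus-strand hairpin, Mir3074-2, and 2 bases of the noncoding gene Gm26532. The b cluster lies on the plus strand of chromosome 13 and spans 792 bases, with Mir23b at 63300484 to 63300557, Mir27b at 63300712 to 63300784 and Mir24-1 at 63301208 to 63301275. All 3 b hairpins are inside 2010111I01Rik on its own strand, Mir23b in an intron and the others overlapping exons of its transcripts annotated as processed or as subject to nonsense-mediated decay, and inside an intron of Fancc on the opposite strand.

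RefSeq held 11 mature entries for the members on GRCm38.p6, and those that the results turn on are shown here 5′ to 3′ with the seed in capitals, because they show which arms share a seed and where paralogs differ.
miR-23a-3p: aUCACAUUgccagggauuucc
miR-27a-3p: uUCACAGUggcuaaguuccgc
miR-27b-3p: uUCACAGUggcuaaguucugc
miR-24-3p: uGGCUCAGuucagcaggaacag
miR-23a-5p: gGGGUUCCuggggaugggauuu
miR-23b-5p: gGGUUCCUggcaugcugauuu
miR-27b-5p: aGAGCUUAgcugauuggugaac

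miR-27a-3p and miR-27b-3p share the seed UCACAGU and are identical at 20 of 21 positions, with C19U as the only difference, counted from the 5′ end of miR-27a-3p. The miR-23 seed UCACAUU differs from that of miR-27, and the 3p arms of Mir23a and Mir23b also share their first 18 bases. The 5p arms are less alike: miR-23a-5p and miR-23b-5p have the seeds GGGUUCC and GGUUCCU, and the 27a and 27b 5p arms are identical at 14 of 22 positions. A 3p tag must therefore reach base 19 before it tells the clusters apart.

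Several tags in the files show this limit, and are given in DNA letters as deposited, with the seed in capitals in the first and the base at position 19 in capitals in the others.
miR-27-3p from either cluster: tTCACAGTggctaagttc
miR-27b-3p of 19 bases: ttcacagtggctaagttcT
miR-27a-3p of 21 bases: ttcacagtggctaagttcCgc
miR-27b-3p of 21 bases: ttcacagtggctaagttcTgc

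The first of these tags was counted 12587 times over the 6 libraries, against 3166 for the 19-base tag, 640 for the 21-base miR-27a-3p tag and 1669 for the 21-base miR-27b-3p tag. Among annotated transcripts, the 18 bases occurred in Mir27a, Mir27b and 1 transcript of 2010111I01Rik, the gene around Mir27b. The most common miR-27-3p tag in these files thus cannot be assigned to a cluster.

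Each library held 18870345 to 23758363 tags, and 727981 to 2154419 of these were microRNA tags, to which levels are scaled as counts per 1000000 microRNA tags (CPM). MicroRNA tags made up 3.76% of the retinoic acid library and 6.01% to 11.4% of the other 5 libraries. Members gave 17408 tags in DMSO, 17264 in ddH2O, 17715 with vitamin C, 11402 with CHIR99021, 15198 with BIO and 3680 with retinoic acid, or 0.506% to 0.988% of microRNA tags. Arms of 10 of 11 stem cell marker hairpins (of the miR-290 and miR-302 clusters) were detected, and their summed level was 154670 CPM in retinoic acid and 251650 to 319090 CPM in the other 5 libraries. The fibroblast and mesenchymal markers, all 5 detected, summed to 1474 to 2221 CPM, the endothelial marker Mir126a to 20.96 to 33.18 CPM, and 3 of 5 blood cell markers to 103 to 154 CPM.

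By exact tags, miR-23a-3p was the most abundant single arm of the clusters in all 6 libraries, although in CHIR99021 its interval overlapped that of miR-24-3p. When tags with untemplated 3′ ends, described below, are added, miR-24-3p had more tags than miR-23a-3p in 4 of 6 libraries, for example 6295 against 5626 in DMSO. The level of miR-23a-3p by exact tags was 2238 CPM in DMSO and 3617 in ddH2O. Among the treated libraries it was 1728 with retinoic acid, 2097 with BIO, 1928 with CHIR99021 and 3047 with vitamin C. The ddH2O and vitamin C libraries were the highest and retinoic acid the lowest. Among the 1268 arms miR-23a-3p ranked between place 46 and place 82. miR-24-3p, whose origin cannot be split between Mir24-1 and Mir24-2, stood at 1572 CPM in DMSO, 1887 in ddH2O, 1623 with vitamin C, 1868 with CHIR99021, 1903 with BIO and 1096 with retinoic acid. Here BIO, CHIR99021 and ddH2O were level with each other, their intervals overlapping, and retinoic acid was again lowest.

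miR-23b-3p, the b cluster counterpart of miR-23a-3p, was lower than it in every library. It stood at 1113 CPM in DMSO and 1349 in ddH2O, and among the treated libraries 628 with retinoic acid, 1249 with BIO, 1210 with CHIR99021 and 1330 with vitamin C. Apart from retinoic acid, these values spread by much less than those of miR-23a-3p. For miR-27-3p, all tags of either cluster together gave 2229 CPM in DMSO, 2275 in ddH2O, 2583 with vitamin C, 1848 with CHIR99021, 1117 with BIO and 1319 with retinoic acid. With tags of all lengths counted, BIO and not retinoic acid held the lowest miR-27-3p level. This order did not hold for tags of 20 to 26 bases. Of these, BIO had 209 of miR-27a-3p and 474 of miR-27b-3p, among 2099380 microRNA tags. Retinoic acid had 71 and 104, among 727981 microRNA tags. Tags that could only be miR-27b-3p made up 345 CPM in retinoic acid and 410 to 617 CPM elsewhere, and tags that could only be miR-27a-3p 99.8 to 299 CPM over all 6 libraries.

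The 5p arms separated the clusters by level. miR-23b-5p stood at 426 CPM in DMSO and 387 in ddH2O, and among the treated libraries 128 with retinoic acid, 489 with BIO, 513 with CHIR99021 and 379 with vitamin C. miR-27b-5p stood at 435 CPM in DMSO and 311 in ddH2O, at 135 with retinoic acid, 330 with BIO, 574 with CHIR99021 and 368 with vitamin C. Outside retinoic acid these arms stood at 311 to 574 CPM. The specific miR-27b-3p tags stood at 410 to 617 CPM there, but are only a part of that arm. They leave out 600 to 1666 CPM of miR-27-3p tags that match both hairpins, so the 5p and 3p levels of Mir27b cannot be compared directly. miR-23a-5p reached only 52.9 CPM in DMSO, 32.0 in ddH2O, 25.4 with vitamin C, 30.8 with CHIR99021, 41.0 with BIO and 16.5 with retinoic acid. miR-27a-5p (1 to 16 tags per library), miR-24-2-5p (2 to 16 tags) and miR-24-1-5p (0 to 3 tags) stayed under 10 CPM in all libraries and entered no comparison. For miR-24-1-5p the count of 0 in retinoic acid allows a level of up to 4.12 CPM, and that in ddH2O up to 1.72 CPM, at 3 counts.

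**Figure D1:**
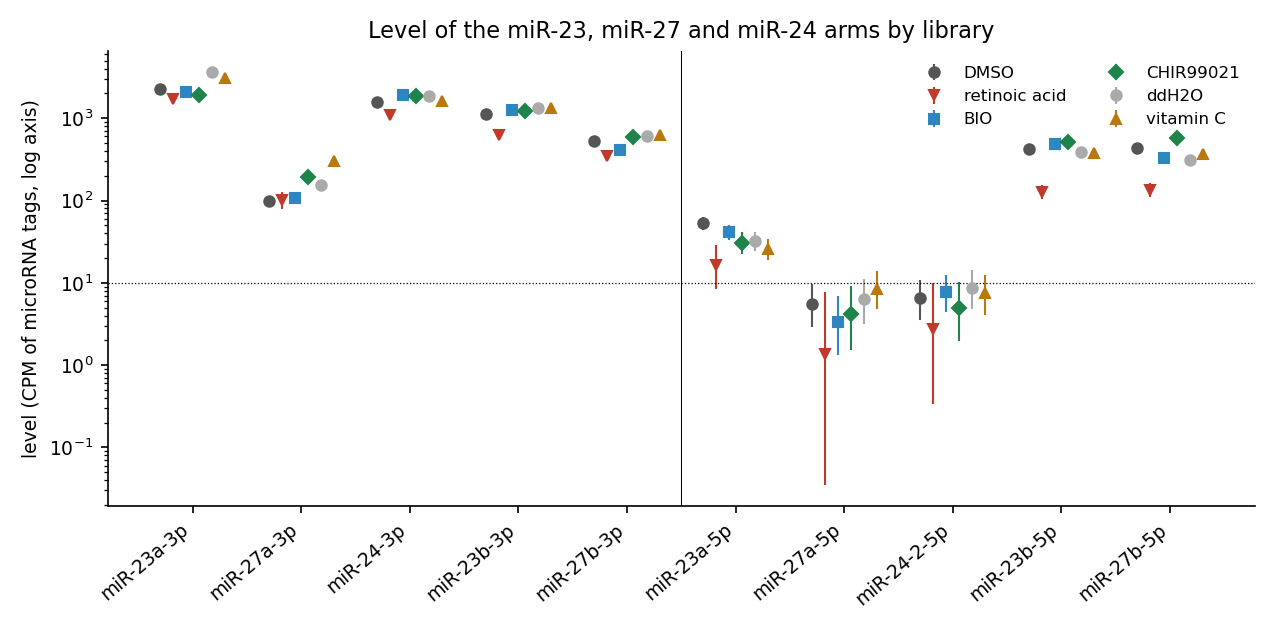
Level of 10 arms of the clusters (x axis; 3p arms left of the vertical line, 5p arms right) in CPM of microRNA tags on a log axis, with 1 symbol per library, bars for the 95% counting interval and a dotted line at 10 CPM. miR-27a-3p and miR-27b-3p are shown by the tags specific to each; retinoic acid is lowest for miR-23b-5p (128 CPM) and miR-27b-5p (135 CPM), while miR-27a-3p is highest in vitamin C (299 CPM).

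Among exact tags, the share from the 5p side gives the same contrast for the miR-23 hairpins. For Mir23b it was 27.7% in DMSO and 22.3% in ddH2O, and among the treated libraries 16.9% with retinoic acid, 28.1% with BIO, 29.8% with CHIR99021 and 22.2% with vitamin C. For Mir23a it was 0.827% to 2.31%, so the miR-23 hairpins of the 2 loci differed in how much of each arm was recovered in every library. The Mir27 hairpins, pooled because most 3p tags match both, had 9.35% of tags on the 5p side in retinoic acid and 12.2% to 23.8% in the other 5 libraries. The Mir24 hairpins, pooled as well, had 0.25% to 0.499%. Retinoic acid had the lowest 5p share for Mir23b, with an interval of 13.9% to 20.3% that lies below those of the other libraries.

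Retinoic acid was set against DMSO to ask what the differentiation signal does to these microRNAs within 24 h. An arm counted as called at a 2-fold or larger ratio whose interval leaves out 1, provided that one of the libraries reached 10 CPM. With DMSO as control and microRNA tags as the scale, the 3 arms called are 5p arms, and all were lower with retinoic acid. miR-23b-5p, at 128 against 426 CPM, was 3.33-fold lower (95% interval 2.69 to 4.17). For miR-27b-5p the fall was from 435 to 135 CPM, or 3.23-fold (2.62 to 4.02). miR-23a-5p was 3.21-fold lower, but on 12 against 114 tags, with an interval of 1.77 to 6.40. Of 8 member arms compared, 3 were called lower and 0 higher. Over all 530 arms compared, 7.55% were called lower and 33% higher.

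The 3p arms lay under the 2-fold limit of the call. With retinoic acid, miR-23b-3p was 1.77-fold lower (1.60 to 1.96), miR-27b-3p 1.53-fold lower (1.33 to 1.76), miR-24-3p 1.43-fold lower (1.33 to 1.55) and miR-23a-3p 1.29-fold lower (1.22 to 1.38). miR-27a-3p, on 73 tags in retinoic acid, had a ratio of 1.00 (0.760 to 1.32). By specific tags, in both pairs the b arm was further below its DMSO level than the a arm. For the miR-27 pair this rests mostly on 19-base tags, 783 of 1135 for miR-27b-3p in DMSO and 147 of 251 in retinoic acid. Their last base is ambiguous, as described below. With tags of 20 to 26 bases, miR-27b-3p was 63.5% (59.3% to 67.5%) of specific miR-27-3p tags in DMSO. In retinoic acid it was 59.4% (51.8% to 66.8%), an interval that overlaps. Summed over their specific arms, the b cluster was 2.03-fold lower (1.89 to 2.18) and the a cluster 1.30-fold lower (1.22 to 1.38), intervals that do not overlap. The b sum holds more 5p tags, in DMSO 917 of miR-23b-5p and 937 of miR-27b-5p among 5390, against 114 of miR-23a-5p among 5176. By specific miR-23-3p and miR-27-3p tags alone, the b cluster stood at 973 CPM in retinoic acid, 1640 in DMSO and 1961 in ddH2O. The a cluster stood at 1828, 2337.5 and 3772 CPM in these libraries. All member tags together were 1.60-fold lower (1.54 to 1.66).

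This contrast between the clusters depended on the vehicle. Against the ddH2O library, which holds more miR-23a-3p than DMSO, the a cluster was 2.07-fold lower with retinoic acid (1.95 to 2.19) and the b cluster 2.15-fold lower (2.00 to 2.31), intervals that overlap. There miR-23a-3p was 2.09-fold lower (1.97 to 2.23) and miR-23b-3p 2.15-fold lower (1.94 to 2.38), miR-27a-3p 1.55-fold lower (1.19 to 2.04) and miR-27b-3p 1.77-fold lower (1.54 to 2.04). The calls changed too. With ddH2O as control, 4 arms were called lower, namely miR-23a-3p, miR-23b-3p, miR-23b-5p (3.03-fold, 2.43 to 3.801) and miR-27b-5p (2.31-fold, 1.86 to 2.90), against 6.59% of all arms, and miR-23a-5p, at 1.94-fold lower (1.03 to 3.98), was not. miR-23b-5p and miR-27b-5p were called against either vehicle.

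The median log2 ratio of the 8 arms was -0.72, against 0.46 over all 530 arms, and 7 of 8 member arms lay below 0, against 30.9% of all arms. The scaling matters for this comparison, since retinoic acid has the smallest microRNA share. Under TMM scaling, which moves every log2 ratio by -0.51, 6 member arms were called lower, the 3 above and the 3p arms miR-23b-3p, miR-24-3p and miR-27b-3p, and calls over all arms went from 175 higher and 40 lower to 96 higher and 90 lower, 17.4% lower. Median-of-ratios scaling added miR-23b-3p to the 3 arms, where 13.3% of all arms were called lower. Scaled to all tags of the library, 8 of 8 were called lower, where 60.1% of all arms were. The 3 arms lay below the control under every alternative run, and of these alternatives ddH2O as control ended the call of miR-23a-5p. The summed stem cell markers were also lower in this library, as given above, and their part in the result was not tested. In a culture, fewer cells with a microRNA and less of it per cell cannot be told apart.

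BIO against DMSO asks about GSK3 inhibition. None of the 8 member arms was called higher (background 2.13%) or lower (background 4.89%). Their median log2 ratio was 0.01, against -0.09 over all 470 arms compared. miR-27b-5p was 1.32-fold lower (1.19 to 1.46), miR-23a-3p 1.07-fold lower (1.02 to 1.11) and miR-24-3p 1.21-fold higher (1.16 to 1.27). The summed miR-23-3p tags did not differ beyond counting error, with a ratio of 0.999 (0.966 to 1.03). miR-27-3p as a whole, which joins 2 arms and their shared tags and so was not part of the call, was 1.995-fold lower (1.90 to 2.10) at 1117 against 2229 CPM.

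That difference lay mostly in the short tags that cannot be assigned to a cluster. These were 2.67-fold lower in BIO (2.505 to 2.853), at 600 against 1603 CPM, while miR-27a-3p had a ratio of 1.08 (0.891 to 1.31) and miR-27b-3p was 1.28-fold lower (1.17 to 1.41). Of the miR-27b-3p tags, 386 of 861 in BIO and 783 of 1135 in DMSO had 19 bases. Their last base is ambiguous, as described below. BIO also had the smallest share of tags of 18 and 19 bases in the whole library, 8.01% against 10.9% in DMSO, and in microRNA tags, where 18-base tags were 0.509% against 1.68%. Among tags of 20 to 26 bases, BIO had no fewer than DMSO: 209 against 202 of miR-27a-3p and 474 against 351 of miR-27b-3p. The microRNA totals were 2099380 in BIO and 2154419 in DMSO. In ddH2O these tags numbered 261 and 440, among 1748208 microRNA tags. The lower miR-27-3p level in BIO than in DMSO was thus seen only with the 18- and 19-base tags counted. Whether it follows from that shift in tag length was not tested. The labels say that the raw data of BIO were lost, and whether its tags were prepared like those of the other libraries is not given in the sources used here. Against ddH2O, miR-27-3p as a whole was 2.04-fold lower in BIO (1.93 to 2.14), and the a cluster was 1.69-fold lower (1.63 to 1.76), against 1.06-fold for DMSO as control. Then miR-23a-3p was 1.72-fold lower (1.66 to 1.79), miR-24-3p had a ratio of 1.01 (0.963 to 1.06), and miR-27b-5p one of 1.06 (0.947 to 1.19), the other side of 1. miR-27a-3p also changed sides, to 1.45-fold lower (1.21 to 1.73).

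CHIR99021, the other GSK3 inhibitor, gave no call among the 8 arms against DMSO either, where 5.89% of all 475 arms compared were called higher and 12.2% lower. Its member median was 0.21 on the log2 scale, against -0.12 over all arms. miR-27a-3p came nearest to the call, at 191 against 99.8 CPM, 1.92-fold higher (1.60 to 2.30). It passed 2-fold under TMM and under median-of-ratios scaling and with the most abundant tag alone, but against ddH2O it was only 1.23-fold higher (1.04 to 1.46). Its tags of 19, 20 and 21 bases numbered 32, 169 and 72 in CHIR99021 and 13, 110 and 92 in DMSO. The microRNA totals were 1427641 and 2154419. Tags of 18 and 19 bases were 15.8% of the whole CHIR99021 library and 10.9% of DMSO. Whether the miR-27a-3p difference follows from tag length was not tested. miR-27b-5p was 1.32-fold higher (1.20 to 1.45), miR-23b-5p 1.20-fold higher (1.09 to 1.33) and miR-24-3p 1.19-fold higher (1.13 to 1.25). miR-23a-5p was 1.72-fold lower (1.20 to 2.49) on 44 against 114 tags. The b cluster was 1.16-fold higher (1.11 to 1.20) and the a cluster 1.11-fold lower (1.06 to 1.16). Against ddH2O the a cluster was 1.77-fold lower (1.69 to 1.85), miR-23a-3p was 1.88-fold lower (1.79 to 1.96), miR-23a-5p was 1.04-fold lower (0.688 to 1.58), and miR-24-3p had a ratio of 0.990 (0.940 to 1.04).

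The inhibitors were also compared with each other, at 3 µM CHIR99021 and 1 µM BIO, doses that differ. None of 8 arms was called, with a background of 6.95% higher and 6.53% lower in CHIR99021 among 475 arms. The miR-27 arms were those furthest apart. miR-27a-3p was 1.78-fold higher in CHIR99021 (1.48 to 2.13), miR-27b-5p 1.74-fold higher (1.57 to 1.93), and miR-27-3p as a whole 1.65-fold higher (1.56 to 1.75). The libraries also differed in tag length, with 15.8% of tags at 18 and 19 bases in CHIR99021 and 8.01% in BIO. miR-27a-3p tags of 19, 20 and 21 bases numbered 32, 169 and 72 in CHIR99021 and 17, 108 and 100 in BIO. miR-24-3p had a ratio of 0.982 (0.934 to 1.03) and miR-23b-3p one of 0.969 (0.912 to 1.03). The BIO and CHIR99021 comparisons with DMSO share the DMSO library, and this one shares a library with each of them.

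In vitamin C against ddH2O, 7 of 8 arms lay between 1.26-fold lower (miR-23a-5p) and 1.18-fold higher (miR-27b-5p). miR-27a-3p was the exception, at 299 against 156 CPM, 1.92-fold higher (1.66 to 2.23). Its paralog miR-27b-3p had a ratio of 1.01 (0.928 to 1.10). Tags of miR-27a-3p with 19, 20 and 21 bases numbered 57, 320 and 188 in vitamin C and 11, 107 and 154 in ddH2O. The microRNA totals were 1889212 and 1748208. Tags of 18 and 19 bases were 18.73% of the whole vitamin C library and 10.99% of ddH2O. Whether the miR-27a-3p difference follows from tag length was not tested. miR-23a-3p was 1.19-fold lower (1.15 to 1.23), miR-24-3p 1.16-fold lower (1.11 to 1.22), and miR-23b-3p had a ratio of 0.985 (0.931 to 1.04). No arm was called, against a background of 6.02% higher and 1.45% lower among 482 arms. With DMSO as the control in place of ddH2O, miR-27a-3p was called higher, at 3.00-fold (2.56 to 3.52), and miR-23a-5p lower, where 8.96% of all arms were called higher and 2.08% lower. miR-23a-3p changed direction with the control, to 1.36-fold higher (1.31 to 1.42), as did miR-27b-5p, to 1.18-fold lower (1.07 to 1.30), miR-23b-3p, to 1.19-fold higher (1.13 to 1.26), and miR-24-3p, with a ratio of 1.03 (0.983 to 1.08). The member median was -0.03 on the log2 scale, against -0.02 over all arms.

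The vehicle libraries themselves differed. With 1 library each, an effect of the vehicle and variation between cultures cannot be told apart. miR-23a-3p was 1.62-fold higher in ddH2O than in DMSO (1.56 to 1.68), at 3617 against 2238 CPM, and miR-27a-3p was 1.56-fold higher (1.30 to 1.87). miR-27b-5p was 1.40-fold lower (1.26 to 1.56) and miR-23a-5p 1.65-fold lower (1.19 to 2.32). The a cluster was 1.59-fold higher (1.53 to 1.65) and the b cluster 1.06-fold higher (1.02 to 1.11). None of the 8 arms was called, with a background of 5.01% higher and 2.3% lower among 479 arms. The differences of BIO and CHIR99021 from DMSO for miR-23a-3p, miR-23b-3p and miR-24-3p were no larger than 1.21-fold. Between the vehicles these arms differed by 1.62-fold, 1.21-fold and 1.20-fold, in that order. For miR-24-3p the BIO difference, 1.21-fold (1.16 to 1.27), was thus no smaller than that between the vehicles (1.14 to 1.26).

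**Figure D2:**
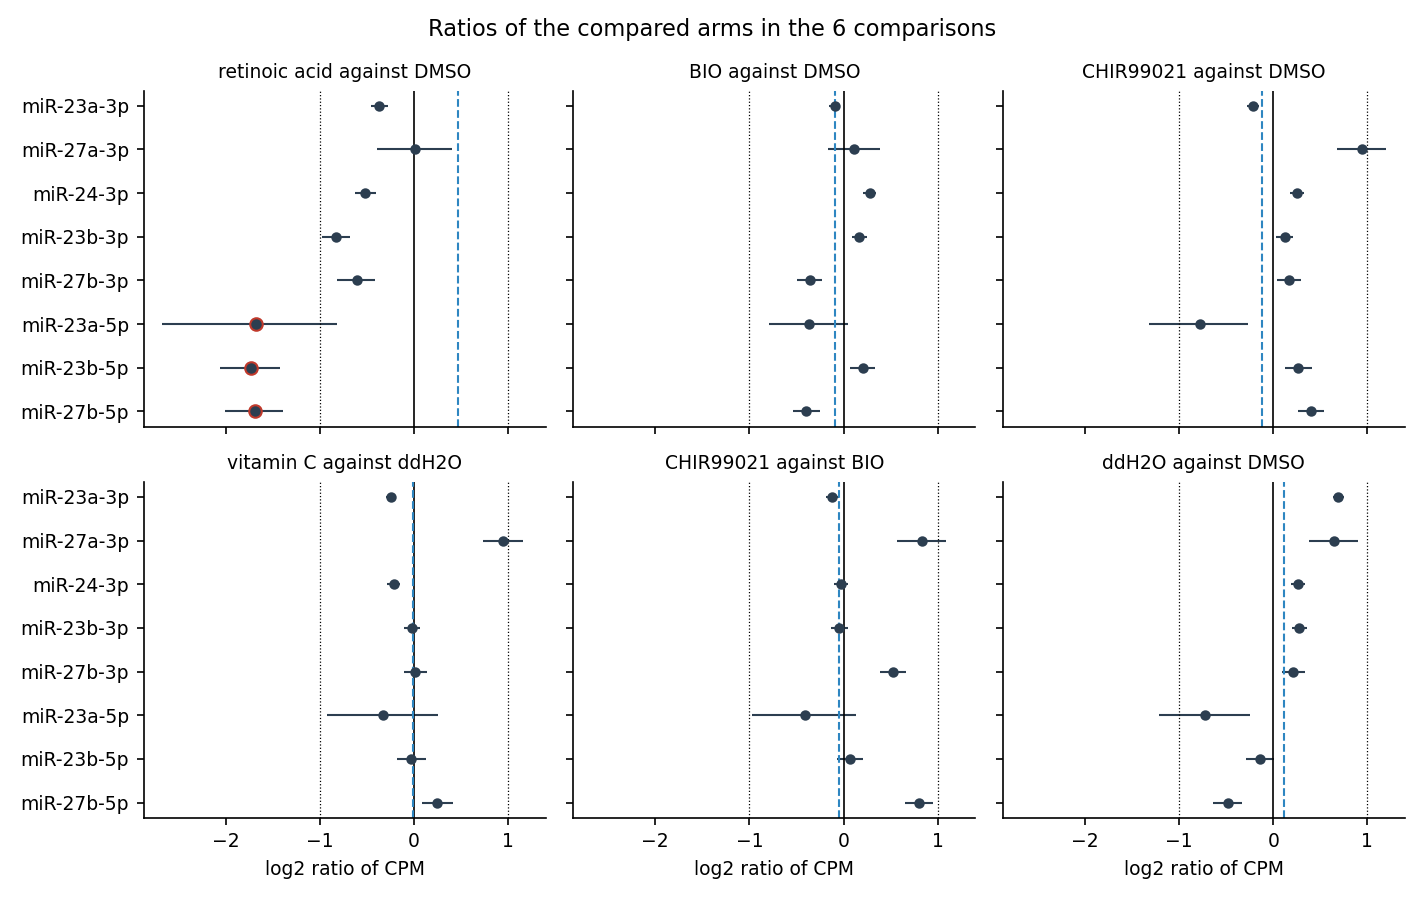
Log2 ratio of CPM (x axis) of the 8 member arms compared (y axis) in each of the 6 comparisons, with bars for the 95% counting interval, a solid line at 0, dotted lines at 2-fold and a dashed blue line at the median of all arms compared. The 3 called arms carry a red ring and all stand in the retinoic acid panel, between -1.73 and -1.63; miR-27a-3p lies close to the upper dotted line for CHIR99021 against DMSO (0.94) and vitamin C against ddH2O (0.94).

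The balance between the clusters was read from tags specific to 1 of them. For miR-23-3p the a cluster supplied most tags in all 6 libraries: the b cluster share was 33.2% in DMSO (32.1% to 34.3%), 27.2% in ddH2O, 30.4% with vitamin C, 38.6% with CHIR99021, 37.3% with BIO and 26.6% with retinoic acid (24.6% to 28.8%). It was highest with the GSK3 inhibitors, whose intervals overlap each other and lie above that of DMSO, and lowest in retinoic acid and ddH2O, whose intervals overlap. The vehicles differed by nearly as much as retinoic acid and DMSO did. Hardly any miR-23-3p tags were too short to assign, 0.0277% to 0.109% of the family.

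Changes in what is counted moved this share in either direction, but not past 50%. With only the most abundant tag of each arm it was lower, from 21.7% in ddH2O to 32.0% with CHIR99021, and 26.8% in DMSO. When tags of 21 bases or more were read only by their base at position 19, so that untemplated bases further on were allowed, the b share of miR-23-3p was 40.8% in DMSO and 33.4% in ddH2O, and among the treated libraries 34.4% with retinoic acid, 44.9% with BIO, 45.6% with CHIR99021 and 36.03% with vitamin C. At most 0.139% of these tags had neither of the expected bases there.

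For miR-27-3p the balance was the opposite, and less secure. Counting all specific tags, the b cluster supplied 84.1% in DMSO, 79.7% in ddH2O, 67.4% with vitamin C, 75.6% with CHIR99021, 79.2% with BIO and 77.5% with retinoic acid, over 50% in 6 of 6 libraries. With tags of 20 to 26 bases it supplied 63.5% in DMSO, 62.8% in ddH2O, 61.7% with CHIR99021, 69.4% with BIO and 59.4% with retinoic acid, but 44.1% with vitamin C, which lies under 50% (interval 40.8% to 47.4%). With tags of 21 bases or more, read by the base at position 19, the share was 75.1% in DMSO, 70.8% in ddH2O, 81.4% with CHIR99021, 79.8% with BIO, 65.3% with retinoic acid and 63.3% with vitamin C. Vitamin C was lowest by all 3 counts, while the order of the other libraries was not the same in each.

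**Figure D3:**
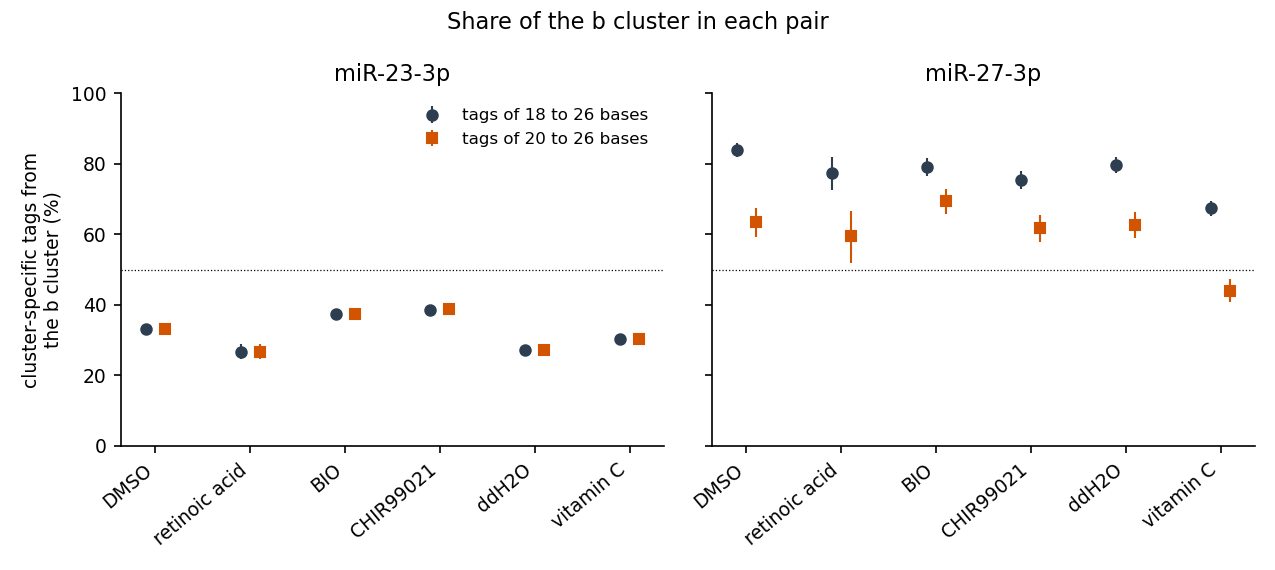
Share of cluster-specific miR-23-3p (left) and miR-27-3p (right) tags that came from the b cluster, in percent, by library, for tags of 18 to 26 bases (dark circles) and 20 to 26 bases (orange squares), with 95% counting intervals and a dotted line at 50%. The miR-23-3p shares, 26.6% to 38.7%, do not depend on the length range, while those of miR-27-3p drop, in vitamin C from 67.4% to 44.1%.

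The paralogs had different length profiles around the base that tells them apart. miR-27a-3p was mostly 20 or 21 bases long: in DMSO 110 of its 215 specific tags had 20 bases, 92 had 21 and 13 had 19. miR-27b-3p was mostly 19 or 21 bases long: in DMSO 783 of 1135 tags had 19 bases, 35 had 20 and 262 had 21. Vitamin C showed profiles like those of DMSO, with 57, 320 and 188 miR-27a-3p tags of 19, 20 and 21 bases against 765, 52 and 292 of miR-27b-3p. In ddH2O, the vehicle of vitamin C, the most common miR-27a-3p length was 21 bases, with 154 of 272 tags against 107 of 20 bases. A range that starts at 20 bases removes 44.9% to 69.1% of miR-27b-3p tags and 2.74% to 11.7% of miR-27a-3p tags.

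The 19-base miR-27b-3p tag also carries an ambiguity of its own. Its last base, the T printed in capitals above, is the base that Mir27b encodes, but the same letters arise when an untemplated T is added to the 18-base tag of either hairpin. Among 19-base tags that open with the shared 18 bases, DMSO had 783 ending in T, 13 in C, the Mir27a base, 1 in A and 0 in G. The other libraries had 147 to 765 ending in T, 2 to 57 in C, 0 to 2 in A and 0 in G. How many of the tags ending in T were templated was not tested.

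The 18-base form set miR-27-3p apart from the other arms of the clusters. It made up 71.5% of miR-27-3p tags in DMSO (70.2% to 72.8%) and 66.0% in ddH2O, and among the treated libraries 65.8% with retinoic acid, 53.6% with BIO (51.5% to 55.6%), 57.4% with CHIR99021 and 64.3% with vitamin C. Among all microRNA tags 18-base tags were 0.509% to 1.68%, and among 248 other arms at a mean of 100 CPM or more only 1 had a higher share in each library. DMSO was highest and BIO lowest both for miR-27-3p and for microRNA tags at large. Tags under 18 bases are not in the files, so the lower end of this distribution is not seen.

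The other 3p arms had the usual microRNA lengths. miR-24-3p was 22 bases long in 78.4% to 88.5% of tags, and miR-23a-3p in 54.8% to 58.6%. miR-23b-3p peaked at 23 bases, with 40.6% to 45.5% of tags, 1 base longer than its paralog in every library. Over both Mir23 hairpins, whose 18-base tags cannot be told apart, 18-base tags were 0.0277% to 0.117% of miR-23-3p. miR-23b-5p was mostly 21 bases (64.5% to 83.2%), and miR-27b-5p was spread over 20 to 23 bases with 26.6% to 38.4% at its most common length, 23 bases in BIO, ddH2O and vitamin C and 21 in the others.

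**Figure D4:**
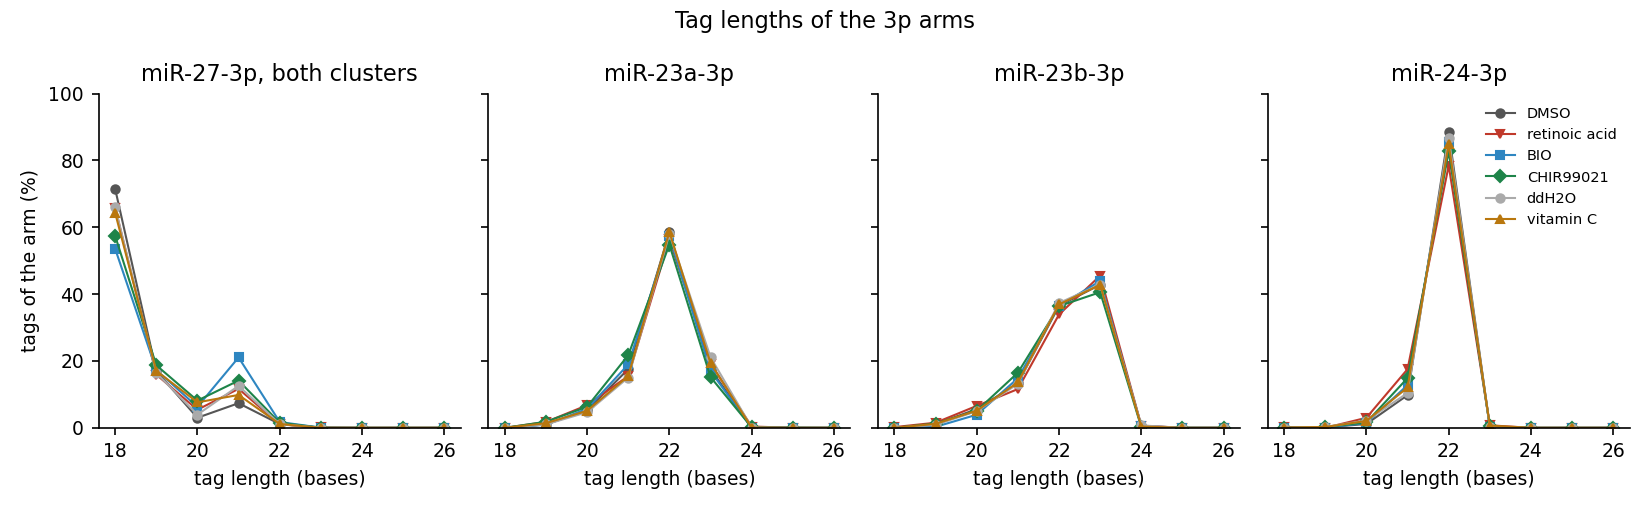
Percent of tags of an arm (y axis) at each length from 18 to 26 bases (x axis), with 1 line per library, for miR-27-3p of both clusters, miR-23a-3p, miR-23b-3p and miR-24-3p. miR-27-3p peaks at 18 bases, the shortest length in the files, with 53.6% in BIO and 71.5% in DMSO, while the peaks of the other arms are at 22 or 23 bases.

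The 5′ end, which sets the seed, was precise for most arms. The most common start was that of the RefSeq mature entry for each arm that had one. miR-27-3p used it in 99.3% to 99.5% of tags, miR-24-3p in 99.0% to 99.3%, miR-23a-3p in 97.2% to 97.7%, and miR-27b-5p in 93.5% to 95.4%. miR-23b-5p was the exception, with tags that start 1 base upstream. The main tag and the upstream one are printed with bases 2 to 8 in capitals, since the shift changes the seed.
miR-23b-5p, main start: gGGTTCCTggcatgctgattt
miR-23b-5p, 1 base upstream: tGGGTTCCtggcatgctgattt

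Bases 2 to 8 of the upstream form are the same letters as the seed of miR-23a-5p. This start made up 15.9% of miR-23b-5p tags in DMSO, 15.5% in ddH2O, 18.2% with vitamin C, 12.2% with CHIR99021, 14.0% with BIO and 26.9% with retinoic acid. The retinoic acid value was the highest, but rests on 25 of 93 tags.

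Tags were also searched for up to 3 untemplated bases after an exact match, since terminal transferases add U or A to microRNAs. miR-24-3p carried such ends on 46.2% of tags in DMSO and 47.2% in ddH2O, and among the treated libraries 51.4% with retinoic acid, 45.2% with BIO, 42.1% with CHIR99021 and 45.3% with vitamin C. Most were a single T, the DNA letter for U, on the full-length tag, shown here with the added base in capitals below the plain form with its seed in capitals.
miR-24-3p of 22 bases: tGGCTCAGttcagcaggaacag
miR-24-3p with an untemplated T: tggctcagttcagcaggaacagT

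These tags were counted 14663 and 10663 times over the 6 libraries. A single T was on 35.7% of miR-24-3p tags in DMSO, 35.9% in ddH2O, 33.5% with vitamin C, 32.4% with CHIR99021, 34.4% with BIO and 39.5% with retinoic acid. Over all microRNA tags it was 3.54% to 4.80%, and 4 or 5 of 249 other arms had a higher share than miR-24-3p. The retinoic acid value was highest, and its interval (37.2% to 42.0%) was the only one to lie wholly above that of DMSO (34.5% to 36.9%), although all microRNA tags together were also highest in that library, 4.80% against 3.67%.

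miR-23b-3p came next, with a single T on 25.1% to 34.4% of tags, and differed from miR-23a-3p, with 10.1% to 15.2%, in every library. Retinoic acid was again the highest for both, 34.4% and 15.2%. The 5p arms of the b cluster had little of it, 1.89% to 2.71% for miR-23b-5p and at most 0.545% for miR-27b-5p, and miR-27-3p had 1.16% to 1.68%. For miR-27b-5p no such tag was seen among 98 in retinoic acid and 696 in vitamin C, which allows up to 3.06% and 0.431%. In the miR-27-3p value the T-ended 19-base tags counted as miR-27b-3p are not included. Because levels above use exact tags only, the 42.1% to 51.4% of miR-24-3p tags with untemplated ends are not in its level. The same holds for 33.7% to 43.65% of miR-23b-3p tags and 13.5% to 19.3% of miR-23a-3p tags. For miR-23b-5p it was 3.15% to 4.69%, so the 5p share of Mir23b given above holds for exact tags only.

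**Figure D5:**
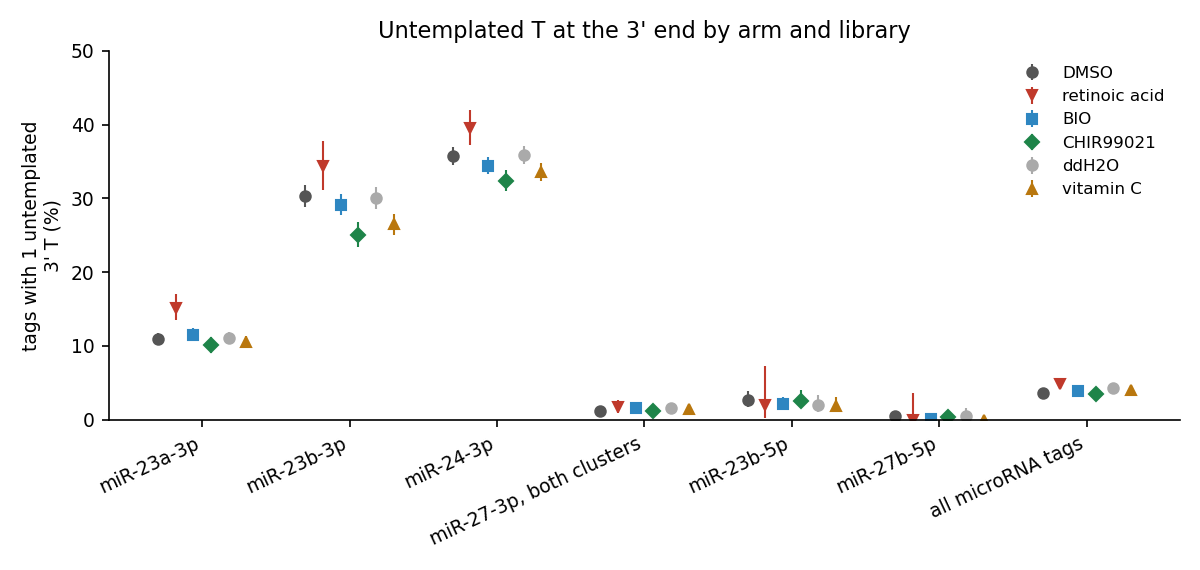
Percent of tags with a single untemplated T at the 3′ end (y axis) for 6 arms of the clusters and for all microRNA tags (x axis), with 1 symbol per library and 95% counting intervals for the arms. miR-24-3p (32.4% to 39.5%) and miR-23b-3p (25.1% to 34.4%) stand above miR-23a-3p (10.1% to 15.2%) and the remaining arms.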

How the data were processed

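Small RNA was sequenced from 6 groups of cultured J1 cells, 1 library each. Per the labels' protocols, RNA was extracted with TRIzol and 1 µg went into a TruSeq RNA kit. The authors deposited, per library, each distinct tag with its length and raw count, without normalization. The submitters' processing notes name mm9, and the aligner, trimming and filters are not given in the sources used here. For BIO, the label states a loss of the raw data.

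Tags of 18 to 26 bases were matched exactly to 1174 hairpins of GENCODE M21 (GRCm38), leaving out tags that also match Gm42418, small nuclear, nucleolar or Cajal body RNA, rRNA, or mitochondrial rRNA and tRNA. A tag belongs to an arm when it starts within 2 bases of the start of the arm's most abundant tag of 20 bases or more. Arms with the same such tag were merged, and tags of several arms were kept apart. Levels are counts per 1000000 microRNA tags (CPM), each library having its own total. Ratios carry 95% exact conditional binomial (Clopper-Pearson) intervals, and log2 ratios a pseudocount of 0.5 counts. Counting and calling were tested on simulated data. With 1 library per group no test between groups was possible.

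The members, lists and alternatives were chosen with earlier results of these data known. All member arms are named, with the arms of Mir3074-1, Mir3074-2, Mir181c and Mir181d and the 3 arms most correlated with each cluster among those at a mean of 100 CPM or more. Mir23c is not analysed here. Software was Python 3.11.15, scipy 1.17.1, pandas 2.3.3, edgeR 4.0.16 (TMM factors) and DESeq2 1.42.0 (size factors).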

Additional observations from a re-analysis of the deposited data

How the results depend on the processing

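Calls were recomputed under other scalings, tag choices and thresholds, and 155 of 176 recomputed counts stayed within 1.5 times the main count. Most main counts were 0, and a 0 that stayed 0 is among those unchanged, so this number says little about how stable the calls are. The exceptions are as follows, each against the counts given in the text. For retinoic acid against DMSO, TMM scaling gave 6 arms lower (17.4% of all arms), scaling to all tags 8 (60.1%), and a 1.5-fold threshold 5 (12.5%). In BIO against DMSO, splitting tags of several arms evenly gave 1 lower (miR-27a-3p; 5.29% of all arms). For CHIR99021 against DMSO, 1 arm was higher (miR-27a-3p) under TMM, under median-of-ratios scaling, with the most abundant tag alone and at 1.5-fold (6.57%, 6.98%, 6.5% and 9.68% of all arms), 1 was lower at 1.5-fold (miR-23a-5p; 24.8%), and 2 were lower scaled to all tags (54%). In vitamin C against ddH2O, 1 was higher (miR-27a-3p) scaled to all tags, with the most abundant tag alone, at 1.5-fold and with the other vehicle as control (7.16%, 4.8%, 10.2% and 8.96%), which also gave 1 lower (miR-23a-5p; 2.08%). For CHIR99021 against BIO, 1 was lower (miR-23a-5p) scaled to all tags (30.1%), 1 higher (miR-27a-3p) with the most abundant tag alone (6.19%) and 2 higher (also miR-27b-5p) at 1.5-fold (10.1%). In ddH2O against DMSO, 1 was lower (miR-23a-5p) scaled to all tags (8.62%), and at 1.5-fold 2 were higher (miR-23a-3p and miR-27a-3p; 15% of all arms) and 1 lower (miR-23a-5p; 6.89%). Counts near the main one can hold other arms: retinoic acid against ddH2O called 4 arms lower and lost miR-23a-5p. A scaling moves all log2 ratios of a comparison alike: TMM by -0.51 and median of ratios by -0.37 for retinoic acid, 0.11 and 0.13 for BIO, 0.07 and 0.11 for CHIR99021, and -0.12 and -0.09 for ddH2O; scaling to all tags by -1.60, -0.28, -0.93 and -0.41, and by -0.65 for CHIR99021 against BIO. Over all arms, BIO went from 10 higher and 23 lower to 14 and 17 under TMM, CHIR99021 from 28 and 58 to 34 and 42 under median of ratios, and ddH2O from 24 and 11 to 19 and 20 under TMM. Merging arms on their most abundant tag of any length, an alternative chosen after seeing the data, joins miR-27a-3p with miR-27b-3p and changed no count by over 1.5 times. Depth limits most the retinoic acid library, where 0 counts allow 4.12 CPM. No paired analysis was possible because each group is 1 library.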

Other observations

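Neighbouring and overlapping hairpins were read in the same way. Mir181c and Mir181d lie on the minus strand of chromosome 8 in an intron of Nanos3, Mir181c 29557 bases from Mir23a. miR-181c-5p stood at 1212 CPM in DMSO and 732 in retinoic acid, 1.66-fold lower (1.51 to 1.82), and at 1028 to 1538 CPM in the other 4 libraries. miR-181d-5p stood at 20850 CPM in DMSO and 8922 in retinoic acid, 2.34-fold lower (2.28 to 2.40), and at 23845 to 27440 CPM elsewhere. On the strand opposite the Mir24 hairpins, no arm of Mir3074-1 or Mir3074-2 had more than 9 tags in a library.

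Each cluster was also taken by the sum of its specific miR-23-3p and miR-27-3p tags, without the 5p arms that the cluster ratios in the text include. The arms whose log2 level over the 6 libraries was most like that sum were listed among 243 arms, as a description over 6 points that share library and depth. For the a cluster they were miR-130b-3p (Pearson r 0.945), miR-7-1/miR-7-2-5p (0.925) and miR-25-3p (0.894). For the b cluster they were miR-181d-5p (0.993), miR-183-5p (0.971) and miR-183-3p (0.956). The most similar arm to the b cluster sum lies on the chromosome of the a cluster.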
